A study of Homo sapiens with 4 samples.

Results

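The core and linker histone genes were described after knockdown of CEBPG, a bZIP transcription factor that pairs with other CEBP and ATF proteins, in RNA-seq libraries labelled NB4, a human line derived from acute promyelocytic leukemia. Members were the gene symbols that start with H1-, H2AC, H2AZ, H2BC, H3C, H3-3 or H4C, or with the older prefixes HIST1H, HIST2H, HIST3H, HIST4H, H1F, H2AF, H2BF or H3F, and 66 of the 16504 gene symbols in the table matched. Of these, 56 are replication-coupled histone genes, 5 are replacement histone genes (H2AZ1, H2AZ2, H3-3A, H3-3B and H1-10), 2 are germline linker histone genes (H1-6 and H1-7), and 3 are not coding histone genes (the pseudogene H2BC20P and the non-coding RNAs H1FX-AS1 and H2AZ1-DT). H2AJ was not analysed here.

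The 2 control libraries are titled NC and come from cells labelled NB4 that the labels describe by the presence of CEBPG. The 2 knockdown libraries come from cells labelled NB4 with CEBPG knocked down by a short hairpin RNA (shRNA) carried by a lentiviral vector. The study calls the controls of its RNA-seq shRNA control cells. The number 3 in the knockdown label was taken to mean shRNA 3 of the study, which is an assumption. Nothing in the labels says whether the 2 libraries of a group came from separate cultures, so p-values measure only the spread between these libraries. One shRNA stands for the knockdown, so an effect of CEBPG loss and an effect particular to that shRNA cannot be told apart.

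Values are FPKM, that is, fragments per kilobase of transcript scaled by the size of the library, and the read depth behind them is unknown. The controls held 17.1 and 18.1 FPKM of CEBPG itself and the knockdown libraries 6.91 and 7.96 FPKM, 42.2% of the control mean (log2 difference -1.14, adjusted p = 0.000836, limma). The median absolute log2 difference between the libraries of a group was 0.090 for the controls and 0.076 for the knockdown. The cell line label stood against its markers in every library: 12 of 14 erythroid markers, among them fetal and embryonic globin genes, were above 10 FPKM, whereas 7 of 12 myeloid markers were under 1 FPKM. The libraries are therefore called here by their labels. More cells in S phase and more histone RNA per cell cannot be told apart in bulk RNA.

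Histones package DNA: an octamer of H2A, H2B, H3 and H4 forms the nucleosome core, and H1 binds the linker DNA between cores. Replication-coupled histone genes supply the proteins for newly made DNA, lie in clusters on chromosomes 6 and 1, lack introns, and are transcribed mainly in S phase. Their mRNAs usually end in a conserved stem-loop instead of a poly(A) tail, which is bound by the stem-loop binding protein SLBP and governs processing, translation and decay. Replacement histones such as H3.3 and H2A.Z are encoded by genes outside the clusters, are polyadenylated, and are made throughout the cell cycle. The libraries were made with an Illumina TruSeq RNA kit, a chemistry that usually selects poly(A) RNA, so the measured level of a tail-less histone mRNA also depends on how much of it is captured.

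The stem-loop separates the classes and is shown for that reason. The annotation (GENCODE release 44 on GRCh38, the hg38 build) was searched for 16 bases that form a stem of 6 pairs, starting GG and ending CC and allowing G-T pairs, around a loop of 4 bases with T at bases 1 and 3, within 150 bases after the stop codon. All 56 replication-coupled members and H1-6 held such a sequence, and none of the 5 replacement members or H1-7 did. Among 19941 canonical protein-coding transcripts 93 held one (0.466%), of which 36 lay outside the members. In the replication-coupled members it began 23 to 68 bases after the stop codon. All 56 have 1 exon in the canonical transcript, as does H1-10 among the replacement genes. The 4 sequences held by more than 1 member follow, with the stem in capitals and the loop in lower case, written in T as in the genome.
H1-2 and 33 other members of the H1, H2A, H2B and H3 families: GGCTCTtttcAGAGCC
H2BC12, H2BC4, H2BC11 and 5 other members of the H1, H2A and H2B families: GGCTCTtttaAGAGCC
H4C8, H4C5, H4C11 and 4 other H4 genes: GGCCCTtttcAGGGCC
H4C9, H4C12, H4C14 and H4C15: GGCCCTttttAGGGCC
The last pair differ from each other only in the loop and were found only in H4 members, and the capitals show the changed stem pair relative to the other families. H2AC11, H2AC15, H2AC20 and H3C6 each held a variant of their own.

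Replication-coupled histone mRNA was higher in the knockdown libraries. Summed over the 56 genes it stood at 1835 and 1741 FPKM in the controls and at 2725 and 2638 FPKM after knockdown. The group means were 1788 ± 66.4 and 2682 ± 61.7 FPKM (SD, n = 2), a difference of 0.58 on the log2 scale. The share of all FPKM went from 0.502% and 0.504% to 0.744% and 0.741%, and the groups did not overlap. The sums are a description and carry no test. The genes H2BC12 and H1-2 made up 67.7% of the sum in the controls and 72.6% in the knockdown. Without both, the sum was 579 and 576 FPKM in the controls against 736 and 733 FPKM in the knockdown, a log2 difference of 0.35.

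Each family of core and linker histones was higher in both knockdown libraries than in both controls. The linker histone H1 went from 547 and 509 FPKM to 922 and 884 FPKM, 1.71-fold between the means. H4 went from 72.3 and 78.1 FPKM to 116 and 118 FPKM (1.55-fold), and H2B from 912 and 865 FPKM to 1296 and 1246 FPKM (1.43-fold). H3 went from 64.8 and 63.8 FPKM to 90.3 and 91.4 FPKM (1.41-fold). The smallest difference between these sums was in H2A, from 239 and 226 FPKM to 301 and 299 FPKM (1.29-fold). The order of the sums leans on abundant genes and is not that of the median gene, given below. In the controls H2BC12 held 77.4% of the H2B sum. H2AC6 held 41.8% of the H2A sum and was lower in both knockdown libraries. The 5 replacement genes together stood at 781 and 746 FPKM in the controls and at 942 and 756 FPKM in the knockdown, and the excess of the first knockdown library came from H3-3A. Without H3-3A the replacement sum was 768 and 736 FPKM against 759 and 742 FPKM, 0.998-fold, so the groups overlapped.

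**Figure D1:**
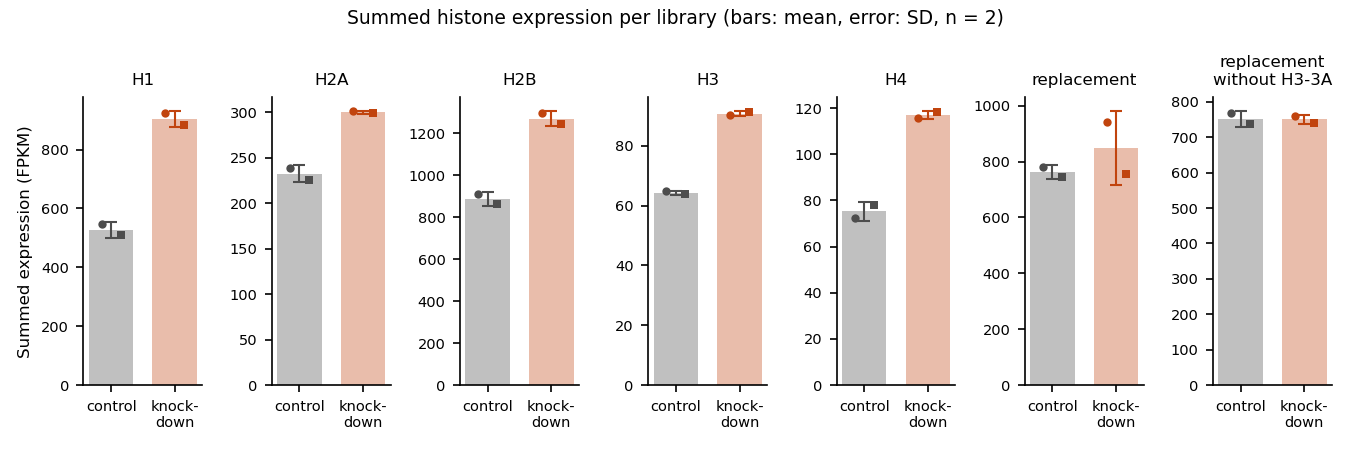
Summed FPKM of each replication-coupled histone family, of the replacement histones and of the replacement histones without H3-3A, with the mean as a bar, the SD of 2 libraries as an error bar, and each library as a point (circle for library 1, square for library 2; each panel has its own axis from 0). Every replication-coupled family lies higher in both knockdown libraries, and the replacement sum without H3-3A is at 768 and 736 FPKM in the controls and at 759 and 742 FPKM in the knockdown.

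Single genes were tested where their mean over the 4 libraries reached 1 FPKM, on log2(FPKM + 1) with limma over 10968 genes and Benjamini-Hochberg adjustment, and a gene was called at an adjusted p under 0.05. Of the 66 members 50 were tested and 16 lay below the filter. Among the tested members 20 were called higher in the knockdown, 1 was called lower and 29 were not called, where 10.9% of all tested genes were called higher and 9.99% lower. The 20 became 12 without the filter. They became 0 with single transcripts in place of gene sums, where only 11 transcripts of all were called higher. The median log2 difference of the tested members was 0.37 beside 0.015 over all tested genes. Both knockdown libraries exceeded both controls in 30 members and lay below both in 5, and the groups overlapped in 15. Over all tested genes 34.3% lay above without overlap and 30.5% below. With 1 library left out, the lone library of its group is assumed to vary like the other group. Of the 20 calls 12 held whichever library was left out. Without the first knockdown library 15 members were called higher, a count that need not hold only genes among the 20.

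Of the 44 tested replication-coupled members 19 were called higher and 1 lower, with a median log2 difference of 0.40. The shares over all tested genes, to be read beside the counts by family and block below, were 10.9% higher and 9.99% lower. Called higher were 1 of 3 H1, 5 of 13 H2A, 3 of 12 H2B, 5 of 7 H3 and 5 of 9 H4 genes, and the gene called lower was an H2B. The median log2 difference was 0.44 in H1, 0.42 in H2A, 0.14 in H2B, 0.52 in H3 and 0.57 in H4. By this measure H2B was the lowest family, whereas by the sums H2A was. Abundant genes are measured more precisely. Among the 20 replication-coupled members with a mean of at least 10 FPKM 12 were called higher, where 12.6% of all genes at that level were. Among the 24 between 1 and 10 FPKM, 7 were, where 10.9% of tested genes of any level were. On hg38 the members lie in 3 blocks. The block at chr6:26017032-26285146 had 7 of 17 tested members called higher and 1 called lower, that at chr6:27132316-27893885 had 8 of 17 called higher, and that at chr1:149782689-149887488 had 4 of 10. Median log2 differences of the blocks were 0.41, 0.36 and 0.47.

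**Figure D2:**
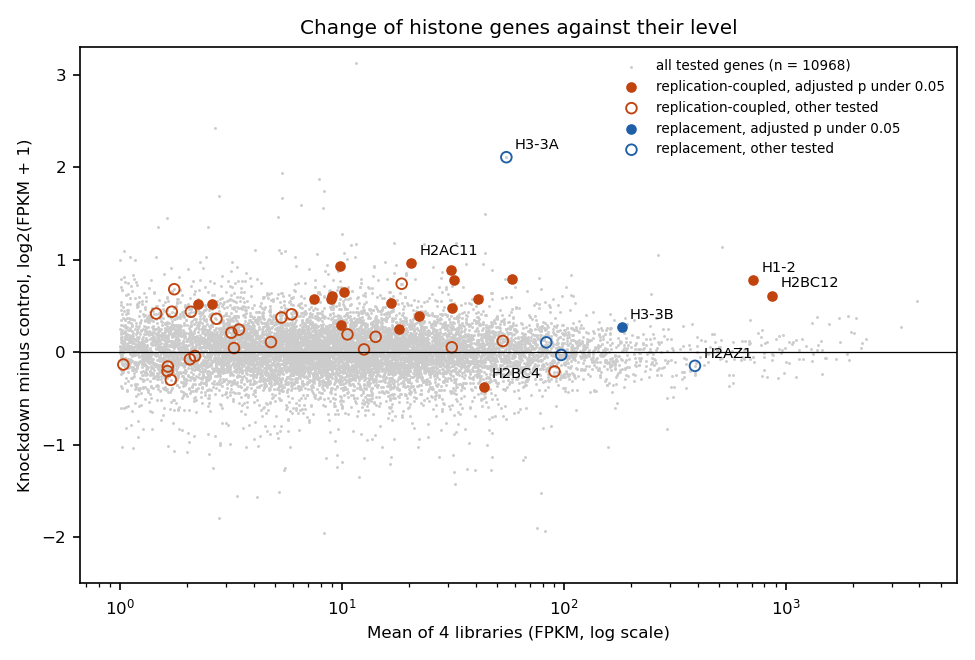
Knockdown minus control difference in log2(FPKM + 1) against the mean FPKM of the 4 libraries (log axis) for all 10968 tested genes in grey, replication-coupled members in orange and replacement members in blue, filled where the adjusted p was under 0.05. Of the replication-coupled members 36 lie above 0 and 8 below, and H3-3A stands far above the others at 2.11 without a call.

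The linker histone H1-2 lies at chr6:26055740-26056470 on the minus strand. It was at 541 and 505 FPKM in the controls and at 916 and 876 FPKM in the knockdown (log2 difference 0.78 ± 0.07 SE, adjusted p = 0.00124). The groups lay far apart relative to the distance between their libraries. This gene alone held 99.0% of replication-coupled H1 FPKM in the controls and 99.3% in the knockdown. The other replication-coupled linker genes were low: H1-4 and H1-3 had means of 3.17 and 1.71 FPKM and log2 differences of 0.21 and 0.44 without a call, and H1-1 and H1-5 lay below the filter.

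Among replication-coupled H2A genes, whose products pair with H2B in the nucleosome, the most abundant was H2AC6. It was at 101 and 93.9 FPKM in the controls and at 82.4 and 85.5 FPKM in the knockdown, lower in both knockdown libraries (log2 difference -0.21, adjusted p = 0.0544). It was called lower when library sizes were rescaled, with an adjusted p of 0.0170 after median-ratio scaling, or when the second control library was left out (adjusted p = 0.0391). The 5 H2A genes called higher moved the other way. H2AC18 was at 44.7 and 40.4 FPKM in the controls and at 74.5 and 74.3 FPKM in the knockdown (log2 difference 0.79 ± 0.07 SE, adjusted p = 0.00123). H2AC19 was at 24.8 and 22.0 FPKM against 41.7 and 39.7 FPKM (0.78, adjusted p = 0.00172). H2AC11, at 14.3 and 12.8 FPKM in the controls and 28.0 and 26.7 FPKM in the knockdown, had a log2 difference of 0.96 ± 0.07 (SE, adjusted p = 0.000998). H2AC8 rose by 0.53 on the log2 scale (13.9 and 13.1 to 20.1 and 19.7 FPKM, adjusted p = 0.00351). H2AC13 was at 19.4 and 18.9 FPKM against 26.7 and 24.0 FPKM (0.39, adjusted p = 0.0132), and its adjusted p was 0.0862 without the first knockdown library. Between the group means H2AC6 went from 41.8% to 28.0% of replication-coupled H2A FPKM, and H2AC18 from 18.3% to 24.8%.

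Among H2B genes, H2BC12 was the most abundant histone gene of the table, at chr6:27146361-27146855 on the minus strand. It was at 715 and 660 FPKM in the controls and at 1073 and 1029 FPKM in the knockdown (log2 difference 0.61 ± 0.07 SE, adjusted p = 0.00266). It held 77.4% of replication-coupled H2B FPKM in the controls and 82.7% in the knockdown. Of its 2 RefSeq entries, NM_080593 carried 713 and 658 FPKM in the controls and 1068 and 1024 FPKM in the knockdown, and NM_001312653 only 2.01 and 2.62 against 5.16 and 4.91 FPKM. H2BC8 was at 20.5 and 22.2 FPKM in the controls and at 40.8 and 40.0 FPKM in the knockdown (0.89 ± 0.06 SE, adjusted p = 0.000836). H2BC17 was at 9.18 and 8.36 FPKM against 11.3 and 10.5 FPKM (0.29, adjusted p = 0.0396). Its call was lost without the second control library or either knockdown library, with adjusted p from 0.0845 to 0.189.

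H2BC4 was the one member called lower. It was at 50.6 and 47.8 FPKM in the controls and at 39.9 and 35.7 FPKM in the knockdown (log2 difference -0.37 ± 0.07 SE, adjusted p = 0.0151), and without the second knockdown library the adjusted p was 0.0947. Other abundant H2B genes showed small differences without a call. H2BC11 stood at 47.4 and 54.1 FPKM in the controls and at 55.8 and 54.6 FPKM in the knockdown (0.12, adjusted p = 0.282). H2BC5 and H2BC21 had log2 differences of 0.05 and 0.03, and the groups overlapped in H2BC21.

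H3 and H4 form the central tetramer of the nucleosome. H3C10 made up 50.9% of replication-coupled H3 FPKM in the controls and was at 33.1 and 32.4 FPKM there and at 48.9 and 49.8 FPKM in the knockdown (log2 difference 0.58 ± 0.06 SE, adjusted p = 0.00177). H3C2 was at 7.03 and 6.82 FPKM against 10.8 and 11.4 FPKM (0.61, adjusted p = 0.00287). H3C4 had a smaller difference, from 16.7 and 15.9 FPKM to 18.8 and 20.4 FPKM (0.25, adjusted p = 0.0432), and its call was lost without any one of the 4 libraries, with adjusted p from 0.0573 to 0.214. H3C14 and H3C15 were low, at 2.00 and 1.89 FPKM and 1.71 and 1.58 FPKM in the controls, and rose by 0.52 each (adjusted p = 0.0308 and 0.0243). Their calls were lost without the first knockdown library (adjusted p = 0.142 and 0.128) or without the second control library (0.0860 and 0.0730), and that of H3C14 also without the first control library (0.0598). H3C13, whose coding sequence differs from that of H3C14 at 12 of 411 bases, was at 2.04 and 1.90 FPKM against 1.32 and 1.51 FPKM (-0.30, adjusted p = 0.0928).

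Among H4 genes, H4C8 was the most abundant, at 25.8 and 26.4 FPKM in the controls and 36.7 and 36.6 FPKM in the knockdown (log2 difference 0.47 ± 0.06 SE, adjusted p = 0.00343). H4C9 was at 5.63 and 7.29 FPKM against 14.1 and 12.3 FPKM (0.93, adjusted p = 0.00402). H4C12 was at 7.23 and 8.16 FPKM against 12.02 and 13.4 FPKM (0.66, adjusted p = 0.00445). H4C5 and H4C11 rose by 0.57 each (adjusted p = 0.0209 and 0.0128). Without the second knockdown library these 2 calls were lost at adjusted p = 0.0582 and 0.0502, and H4C5 was also not called without the first control library (0.0520). In these 5 genes, picked by their calls, both knockdown libraries lay above both controls, as in 34.3% of all tested genes. The groups overlapped in the other 4 tested H4 genes.

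**Figure D3:**
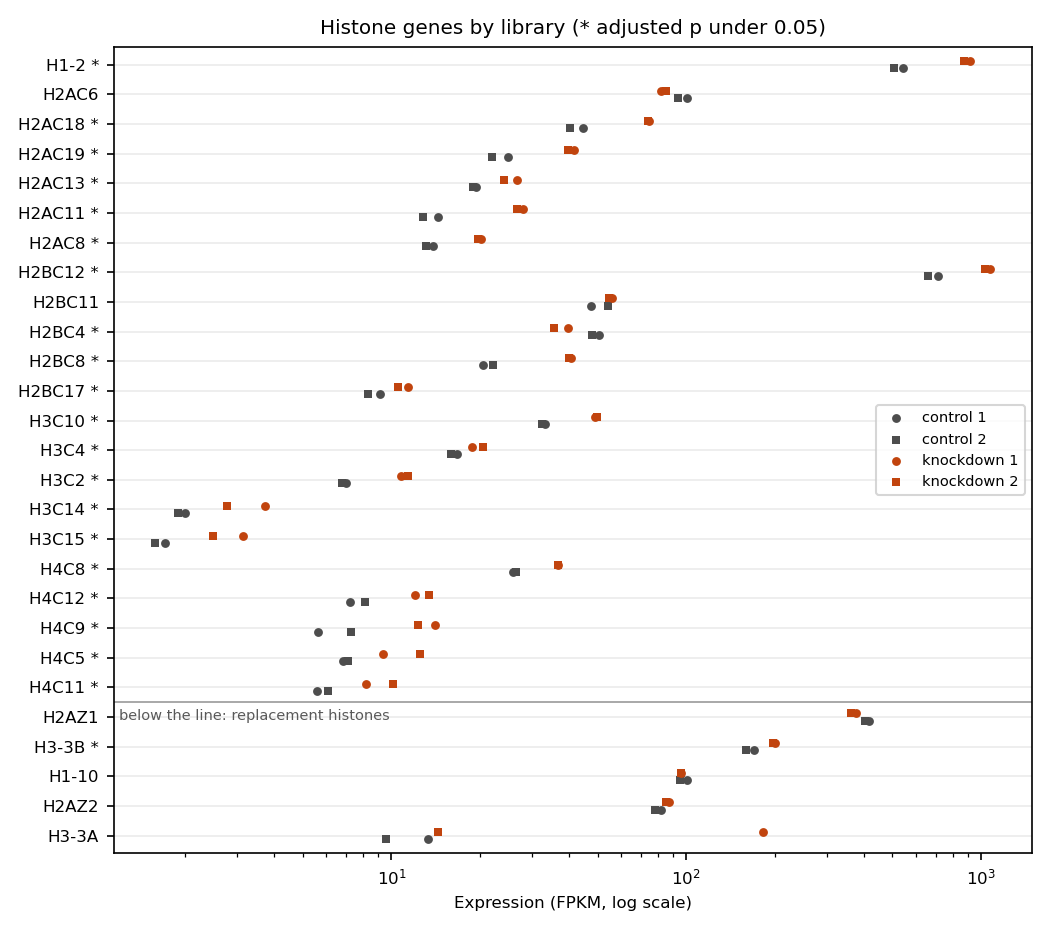
FPKM (log axis) of the 21 members with an adjusted p under 0.05, marked by a star, and of the other members among the 10 most abundant, in each control (grey) and knockdown (orange) library, with replacement histones below the line. H2BC12 and H1-2 lie far to the right of the other replication-coupled genes, H2BC4 is the starred gene with lower knockdown values, and H3-3A is the gene whose knockdown libraries lie far apart.

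Replacement histones showed no common direction. H3-3B, which encodes H3.3, lies at chr17:75776434-75785893 and was at 169 and 160 FPKM in the controls and at 200 and 197 FPKM in the knockdown (log2 difference 0.27 ± 0.06 SE, adjusted p = 0.0209). Its call was lost without either knockdown library (adjusted p = 0.165 and 0.128). H2AZ1, which encodes the H2A.Z variant found around promoters, was the most abundant replacement gene, at 415 and 403 FPKM against 376 and 363 FPKM. Both knockdown libraries of H2AZ1 lay below both controls, by 0.15 on the log2 scale (adjusted p = 0.117), and it was called lower after median-ratio scaling (adjusted p = 0.0394). The linker variant H1-10 stayed between 95.5 and 101 FPKM in all 4 libraries (-0.03, adjusted p = 0.742). H2AZ2, a second H2A.Z gene, was at 82.2 and 78.1 FPKM against 87.0 and 85.5 FPKM (0.11, adjusted p = 0.228). Of its 5 RefSeq entries, the most abundant, NM_012412, was at 46.9 and 46.7 FPKM in the controls and 43.4 and 44.03 FPKM in the knockdown, and NM_138635 at 19.3 and 18.7 against 28.4 and 25.2 FPKM. The sum of H2AZ2 thus holds entries that differ in sign.

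H3-3A, the second gene for H3.3, stood apart in 1 library. It was at 13.3 and 9.60 FPKM in the controls, at 183 FPKM in the first knockdown library and at 14.3 FPKM in the second (log2 difference 2.11 ± 0.98 SE, adjusted p = 0.168). Without the first knockdown library the difference was 0.32 (adjusted p = 0.292), and without the second it was 3.90 (adjusted p = 0.000532), so that 1 library decides the value. The retrocopy H3P6, picked out after the values were seen, has the same 411 coding bases as H3-3A and was at 151 and 145 FPKM in the controls and 141 and 147 FPKM in the knockdown. The coding sequence of H3-3B differs from that of H3-3A at 88 of 411 bases. The sum of H3-3A and H3P6 was 165 and 155 FPKM in the controls and 323 and 162 FPKM in the knockdown. Tested as 1 gene in limma, it had a log2 difference of 0.52 ± 0.27 SE (adjusted p = 0.219). Whether reads were divided between H3-3A and H3P6 differently in the first knockdown library was not tested.

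Several members are identical copies, between which reads of the coding sequence cannot be assigned. H4C14 and H4C15, on opposite strands of the chromosome 1 block, share all 312 coding bases. H4C14 was at 17.4, 9.86, 16.9 and 30.1 FPKM in the 2 control and 2 knockdown libraries in that order, and H4C15 was listed at 0, 7.69, 13.6 and 0 FPKM. Alone neither was called (adjusted p = 0.127 and 0.867), and no fold is given for H4C15. Their sum was 17.4 and 17.6 FPKM in the controls and 30.5 and 30.1 FPKM in the knockdown, and tested as 1 gene it was higher by 0.76 ± 0.06 (SE) on the log2 scale (adjusted p = 0.000924). The summed values of the 2 groups lay far apart, whereas the single copies did not separate them. H2AC18 and H2AC19 share 393 coding bases and summed to 69.5 and 62.3 against 116 and 114 FPKM (0.80, adjusted p = 0.00118). H3C14 and H3C15 share 411 coding bases and summed to 3.71 and 3.47 against 6.87 and 5.26 FPKM (0.61, adjusted p = 0.0149). Other genes of a family also share long stretches of coding sequence, and how reads that map to several of them were counted is not given in the sources used here, so the value of a single gene is less certain than that of its family.

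**Figure D4:**
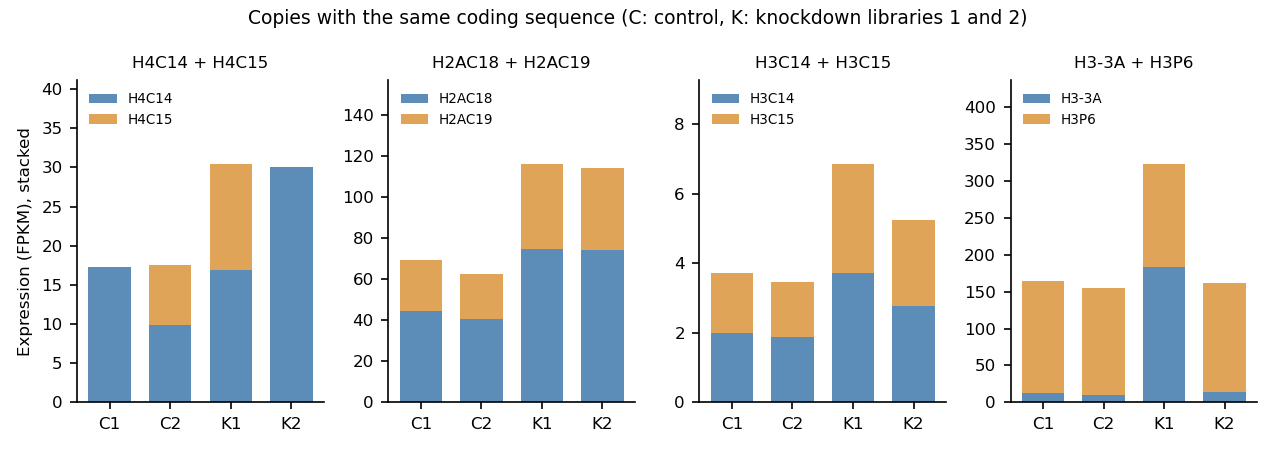
Stacked FPKM of 4 pairs of genes with the same coding sequence in the control (C1, C2) and knockdown (K1, K2) libraries. The sum of H4C14 and H4C15 is 17.4 and 17.6 FPKM in the controls and 30.5 and 30.1 FPKM in the knockdown although the copies share it differently, and the sum of H3-3A and H3P6 is high only in K1, at 323 FPKM.

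Many H2A and H2B genes lie head to head and share the DNA between their start sites. There were 10 such pairs with start sites within 500 bases of each other, and both partners were tested in 9. The changes had the same sign in 8 of the 9, where 40 of the 50 tested members had a positive one, and a call was shared in 1. No agreement particular to the pairing was tested. In the pair H2BC8 and H2AC8 both rose, by 0.89 and 0.53 on the log2 scale. H2BC4 and H2AC6 were both lower in the knockdown libraries, at -0.37 and -0.21, with H2BC4 called. In the pair H2BC11 and H2AC11 the more abundant H2BC11 had a log2 difference of 0.12 without a call and H2AC11 rose by 0.96. H2BC12 had a mean of 688 FPKM in the controls and 1051 FPKM in the knockdown, while its partner H2AC12 was at 1.81 and 1.45 FPKM and was not called (-0.20, adjusted p = 0.327). Of the other pairs, H2AC13 with H2BC13 and H2AC17 with H2BC17 had 1 partner called higher, and H2AC7 with H2BC7, H2AC15 with H2BC15 and H2AC20 with H2BC21 had none.

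The intergenic sequences of those 4 pairs are shown because they hold the start-site DNA of H2BC12, of the pair that was lower, and of H2BC8 and H2AC11. All are from GRCh38 (hg38), on the plus strand, from the base after the start of the gene on the minus strand to the base before the start of its partner. Capitals mark ATTTGCAT (the octamer bound by POU2F1), CCAAT and TATAAA on either strand.
H2BC4 and H2AC6, chr6:26123927-26124171: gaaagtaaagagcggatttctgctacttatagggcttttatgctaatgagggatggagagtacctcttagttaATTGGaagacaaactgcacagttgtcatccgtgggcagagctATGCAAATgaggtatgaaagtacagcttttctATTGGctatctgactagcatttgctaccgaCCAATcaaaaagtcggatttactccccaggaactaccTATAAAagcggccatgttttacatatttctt
H2BC8 and H2AC8, chr6:26216689-26216920: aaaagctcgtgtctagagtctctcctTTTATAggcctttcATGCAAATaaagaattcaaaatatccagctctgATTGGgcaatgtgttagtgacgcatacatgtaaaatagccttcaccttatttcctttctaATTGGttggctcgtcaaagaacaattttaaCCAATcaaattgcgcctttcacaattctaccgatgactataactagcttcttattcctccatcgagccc
H2BC11 and H2AC11, chr6:27132796-27133042: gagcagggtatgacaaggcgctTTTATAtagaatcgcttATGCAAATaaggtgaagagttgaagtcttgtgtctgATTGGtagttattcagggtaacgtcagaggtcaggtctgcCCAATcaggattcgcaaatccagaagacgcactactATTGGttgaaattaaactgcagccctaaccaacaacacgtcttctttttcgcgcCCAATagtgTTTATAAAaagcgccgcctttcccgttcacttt
H2BC12 and H2AC12, chr6:27146859-27147105: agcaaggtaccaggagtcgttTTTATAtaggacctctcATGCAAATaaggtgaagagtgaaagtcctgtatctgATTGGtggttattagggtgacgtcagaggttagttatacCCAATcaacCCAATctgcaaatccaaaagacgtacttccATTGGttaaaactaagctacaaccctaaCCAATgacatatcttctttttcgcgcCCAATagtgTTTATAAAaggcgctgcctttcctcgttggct
Each of the 4 holds 1 octamer, on the minus strand, and 3 to 6 CCAAT. The pair that was lower and the pair that rose both hold 1 octamer, 3 CCAAT and 1 TATAAA.

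**Figure D5:**
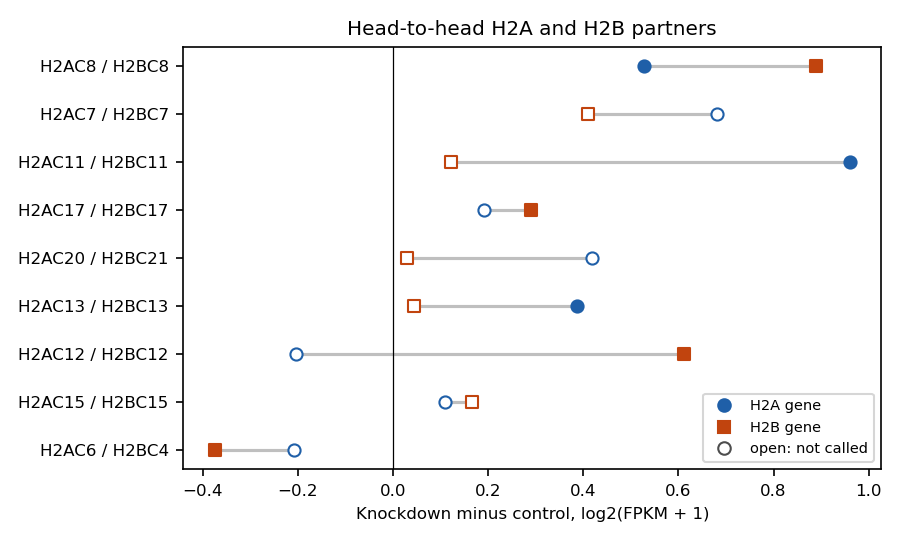
Knockdown minus control difference in log2(FPKM + 1) for the 9 head-to-head pairs with both partners tested, circles for H2A and squares for H2B genes, filled where the adjusted p was under 0.05. In 8 of the 9 pairs both partners lie on the same side of 0, and the exception is H2AC12 with H2BC12.

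Promoters were read from RefSeq (GRCh38), from 250 bases before to 50 bases after the start, for the 50 of 56 replication-coupled members whose promoter was listed and whose RefSeq start lay within 100 bases of the GENCODE start. ATTTGCAT on either strand was found in 22 of them, in 10 of 14 H2A and 12 of 15 H2B genes and in no H1, H3 or H4 gene, against 1.80% of 27305 promoters. CCAAT was found in 42 of 50 (35.7% of all promoters) and TATAAA in 35 (12%). Partners of a pair share part of their window, so these are not separate counts. Members with ATTTGCAT had 5 of 17 tested genes called higher and 1 lower (median log2 difference 0.36), and members without it 13 of 24 called higher (0.50), a difference that was not tested. Over all tested genes 10.9% were called higher and 9.99% lower. Letters like those that CEBP dimers bind, TGATGCAA (CEBP with ATF4) and TTGCGCAA, were in no member promoter and in 0.923% and 0.128% of all promoters.

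RefSeq extends 7 of the replication-coupled genes more than 100 bases past the stem-loop, where a polyadenylated form can end (H2BC12, H2BC4, H2BC5, H2BC21, H2BC18, H3C6 and H4C15), whereas the other 49 end 1 to 18 bases past it. Of the 6 extended genes that were tested 1 was called higher (H2BC12) and 1 lower (H2BC4), with a median log2 difference of 0.15, where 10.9% and 9.99% of all tested genes were called higher and lower. Of the 38 tested genes that end at the stem-loop in RefSeq 18 were called higher and none lower, with a median of 0.43. GENCODE places some gene ends elsewhere. Among others, its genes H2AC6, H2BC11, H4C8 and H3C10 run past the stem-loop, H2AC6 as far as chr6:26139116. Its H2BC12 ends at chr6:27146361, beside the stem-loop at chr6:27146366. The groups thus depend on the annotation, and the difference between them was not tested.

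Other RNAs that lack a poly(A) tail were read beside the histone mRNAs. Of 29 on the list 23 were in the table, with 12 under 1 FPKM in every library, and 7 were tested. Of these 3 were called higher and 1 lower (SCARNA9, a Cajal body RNA, -0.94), where 10.9% and 9.99% of all tested genes were. RN7SL1 and RN7SL2, the RNAs of the signal recognition particle, were at 149 and 186 FPKM and at 289 and 340 FPKM in the controls. In the knockdown they were at 471 and 255 FPKM and at 932 and 510 FPKM (adjusted p = 0.0318 and 0.0226). SNORD3A, the U3 small nucleolar RNA, was also higher (0.70, adjusted p = 0.0298). Summed, the 23 RNAs stood at 488 and 589 FPKM in the controls and at 1464 and 826 FPKM in the knockdown. RN7SL1 and RN7SL2 made up most of this sum, and both were higher in the first knockdown library than in the second. The part that capture of tail-less RNA has in the higher histone values was not tested.

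Factors that make, process and degrade histone mRNA were read next. Of 32 tested 3 were called higher and 2 lower, where 10.9% and 9.99% of all tested genes were, with a median log2 difference of 0.020. SLBP was at 77.9 and 74.1 FPKM in the controls and at 78.7 and 77.8 FPKM in the knockdown (0.04, adjusted p = 0.636). NPAT, the coactivator of histone gene transcription, had a log2 difference of 0.10 (adjusted p = 0.394). Called higher were CCNE2, a cyclin E that acts on entry into S phase (6.94 and 6.60 to 10.4 and 10.6 FPKM, 0.56, adjusted p = 0.00369), ERI1, an exonuclease that trims histone mRNA ends (0.44, adjusted p = 0.00778), and CSTF2T (0.23). CCNE1, the other cyclin E, was called lower (12.8 and 11.8 to 10.1 and 9.57 FPKM, -0.29, adjusted p = 0.0330), as was SRRT (-0.20), which acts with the cap-binding complex.

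Genes of DNA synthesis in S phase are active beside the replication-coupled histone genes. Of 40 tested 4 were called higher and 6 lower, where 10.9% and 9.99% of all tested genes were, with a median log2 difference of -0.0038. RRM2, a subunit of ribonucleotide reductase, was at 78.0 and 76.1 FPKM against 116 and 120 FPKM (0.61, adjusted p = 0.00156), and TYMS, thymidylate synthase, rose by 0.30 (adjusted p = 0.0145). Called lower were MCM6, MCM7 and MCM3 of the replicative helicase (-0.43, -0.27 and -0.23), the primase subunit PRIM1 (-0.31), RRM1 (-0.26) and CCNE1. The fourth gene called higher beside RRM2, TYMS and CCNE2 was RFC1, a clamp loader subunit (0.27).

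Histone chaperones carry histones to and from DNA. Of 36 tested 6 were called lower and 3 higher, where 9.99% and 10.9% of all tested genes were, with a median log2 difference of -0.065. The largest difference was in SUPT16H, a subunit of the FACT complex that handles H2A and H2B, at 51.0 and 48.8 FPKM in the controls and at 24.7 and 24.7 FPKM in the knockdown (-0.98 ± 0.06 SE, adjusted p = 0.000526). ANP32E, which removes H2A.Z, was at 50.5 and 50.2 FPKM against 35.0 and 37.9 FPKM (-0.46, adjusted p = 0.00513). SRCAP, the ATPase that deposits H2A.Z, RBBP4 and CHAF1A, subunits of the CAF-1 complex that places new H3 and H4, and NASP, an H3 and H4 chaperone, were called lower by 0.30, 0.28, 0.27 and 0.23 on the log2 scale. TONSL, CHAF1B and SET were called higher (0.25, 0.21 and 0.20).

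Of the histone variants whose symbols lay outside the rule, 6 were in the table and 4 were tested, of which 2 were called higher and none lower, where 10.9% and 9.99% of all tested genes were. MACROH2A1 was at 115 and 115 FPKM in the controls and at 156 and 154 FPKM in the knockdown (0.43 ± 0.05 SE, adjusted p = 0.00394). H2AX, which is phosphorylated at DNA breaks, was at 162 and 134 FPKM against 194 and 182 FPKM (0.34, adjusted p = 0.0440). The H2AX call was lost without the second control library (adjusted p = 0.0868) or without either knockdown library (0.214 and 0.115). CENPA, the centromeric H3, had a log2 difference of -0.15 (adjusted p = 0.237), and MACROH2A2 and H3-5 were under 1 FPKM in every library. H2BU1, picked out after its values were seen, was at 2.07 and 1.30 FPKM against 0.652 and 0.919 FPKM, lower in both knockdown libraries (-0.58, adjusted p = 0.0539).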

How the data were processed

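RNA-seq was performed on 2 control and 2 CEBPG knockdown libraries of cells labelled NB4. Per the labels, libraries were made with an Illumina TruSeq RNA kit from total RNA, and the submitters' processing notes name HISAT2 2.0.5 and hg38. The authors deposited 1 table of FPKM values for 29265 RefSeq entries. The quantifier, the annotation release and the use of strand are not given in the sources used here. Read depth is unknown, so no interval for counting error is given.

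Entries with a value and a gene symbol (28918) were summed to 16504 symbols. Entries without a symbol held 0.250% of FPKM. The count test of the study cannot be run on FPKM, so genes whose mean reached 1 FPKM were compared in limma 3.58.1 (R 4.3.3) on log2(FPKM + 1), with empirical Bayes moderation and a mean trend, 2-sided, with Benjamini-Hochberg adjustment over 10968 genes and no block. Differences on this scale understate the change of low genes. The fit was tested on simulated data. Class sums carry no test. Of the members outside the replication-coupled and germline classes, 3 that are not coding histone genes were kept apart from the replacement class after the table was read.

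Members and gene lists were chosen with earlier results of these data known. Named by rule were CEBPG, the members with an adjusted p under 0.05, the 10 most abundant members, the replacement genes, H2AX, the macroH2A genes, SLBP, NPAT, CENPA and the called genes of each context list. Other members are named where they concern a pair, a copy or a family. Positions and coding sequences came from GENCODE 44, and coding sequences were taken as the longest reading frame of the canonical transcript. Alternatives were a pseudocount of 0.1, no filter, a replicate block, scaling by median ratios, scaling of each column to one sum, no mean trend, single transcripts instead of gene sums, and leaving out each library. Summing identical copies and leaving out H3-3A, or H2BC12 and H1-2, were chosen after seeing the data.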

Additional observations from a re-analysis of the deposited data

How the results depend on the processing

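The count of 20 members called higher was 12 without a filter on low values and 26 with a replicate block, and 15 to 19 with 1 library left out. With transcripts in place of genes it was 0 in limma (22 at an unadjusted p under 0.05), where only 11 transcripts of all were called higher, and CEBPG itself was at -1.15 with an adjusted p of 0.0587. The single member called lower became 3 with a replicate block, with median-ratio scaling and with columns scaled to one sum (H2BC4, H2AC6 and H2AZ1), 2 without a mean trend, 0 without a filter and 0 with transcripts (3 at an unadjusted p under 0.05 in each), and 0 to 2 with 1 library left out (0 without the second knockdown library, with 4 at an unadjusted p under 0.05). Same-numbered libraries of the groups deviated together only weakly (correlation of their deviations 0.101 over the 10968 tested genes). The labels name nothing they share, so the pairing is a number only. The replicate block raised the calls over all genes to 1818 higher and 1622 lower, and H3-3A was called higher (adjusted p = 0.00891). The log2 difference of the replication-coupled sum, 0.58, was 0.35 without H2BC12 and H1-2. That of the replacement sum, 0.15, was 0.44 without H2AZ1, its most abundant member, -0.0028 without H3-3A, -0.020 without H3-3A and the first knockdown library, and -0.014 to 0.30 with 1 library left out. H1-10 ranged from -0.068 to 0.0085 with 1 library left out and changed sign without the first control library, and H2AZ2 changed sign to -0.096 for its most abundant transcript. The cause of these changes was not tested. The filter and the transcript setting change how many features are adjusted for. With transcripts the unadjusted p in limma also differed. For H2BC12 it was 5.05e-05 as a gene sum and 0.000799 for its entry NM_080593, at log2 differences of 0.612 and 0.610. For the 27 named members, H2AX, MACROH2A1 and SUPT16H, 285 of 355 values kept direction and side of the threshold, 59 lost the call, 9 gained it and 2 changed sign. Without read counts, the precision of low members cannot be stated.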
